A study of Homo sapiens with 8 samples.

Results

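CLEC2D, CD69, CLEC2B, CLEC12A and CLEC12B are 5 C-type lectin receptor genes of the natural killer gene complex on chromosome 12p13. They were taken as named genes of that complex from the 27996 genes of the expression table, together with every m6A peak annotated to them, and they were picked with their expression and peaks already known. Their levels and peaks are therefore given as a description, without a test. HL60 is a human acute myeloid leukemia line. Its Adriamycin-resistant derivative HL60/ADR was selected by stepwise exposure up to 0.5 μg/ml Adriamycin and was kept drug-free for a week before the experiments. Adriamycin, also called doxorubicin, is an anthracycline that poisons topoisomerase II. MeRIP-seq, which pulls down RNA fragments with an antibody against N6-methyladenosine (m6A), had been run on poly(A) RNA with 2 IP and 2 input libraries per line. Expression was read from the inputs. In the labels of the resistant line, only the titles and the file columns say HL60/ADR, the source and cell line fields say HL60, and every comparison of the lines rests on the titles. HL60/ADR is a single selected line, so drug selection and any other difference between the cultures cannot be told apart.

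The natural killer gene complex holds a run of genes for type II membrane proteins with 1 C-type lectin-like domain, which natural killer cells, T cells and myeloid cells carry as receptors or display as ligands. CLEC2D (LLT1) is the ligand of KLRB1 (CD161), CLEC2B (AICL) is the ligand of KLRF1 (NKp80), and CD69 is an early activation antigen that removes S1PR1 from the cell surface. CLEC12A (CLL-1, MICL) and CLEC12B are inhibitory receptors whose cytoplasmic tails hold an ITIM, the motif that recruits the phosphatases PTPN6 and PTPN11, and CLEC12A is a known surface antigen of myeloid leukemia blasts.

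RefSeq's promoter table (GRCh38.p14) held 3 of the 5 genes, CLEC2D, CLEC12A and CLEC12B. The word GAGGAA, the core that PU.1 and other ETS factors recognise, was searched on both strands of the 300 bases around each start site, because PU.1 drives many myeloid genes. It was present 1 time in each of these 3 promoters and in 27.85% of all 35116 promoters of the table. The stretches below are read on the plus strand, with the word in capitals (TTCCTC where it lies on the other strand). The word began at position -146, -65 and -171 from the start site, in that order.
CLEC2D, chr12:9669555-9669584: atgcttcatttgTTCCTCtagctatattta
CLEC12A, chr12:9971332-9971361: aggaagaaatatGAGGAAgaaagatgttat
CLEC12B, chr12:10010444-10010473: aattccctcatgTTCCTCctgctctgcctc
The word TGANTCA, a loose form of the AP-1 site in which N is any base, matches on both strands alike. It was found, as TGAATCA, in the CLEC2D promoter at position -45. The CLEC12A and CLEC12B promoters lacked it, and 7.709% of all promoters held it. It is shown because AP-1 is assembled from immediate early proteins described further on.
CLEC2D, chr12:9669656-9669685: tttgttttgtttTGAATCAttcttggggtt
The C/EBP word TTGCNNAA was in 0 of the 3 promoters and in 10.46% of all promoters. These are matches of letters only, and no binding was measured.

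All 5 genes were higher in HL60/ADR than in HL60, in both libraries of each line. Libraries of the 2 lines did not overlap in that direction for 36.0% of the 13053 genes tested, and since the genes were chosen with these values known, nothing is read from their count. Levels are given as FPKM (fragments scaled by transcript length and library size) in HL60 replicates 1 and 2 and then in HL60/ADR replicates 1 and 2, with the difference of the mean log2(FPKM + 1), HL60/ADR minus HL60, and for CLEC2B its standard error from the spread of the libraries. In bulk RNA, more cells expressing a gene and more RNA per cell cannot be told apart. The median difference over all tested genes was -0.18, and it was 0.04 once the libraries were rescaled to the same median. All 5 differences were positive under both scalings.

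CLEC2B (ENSG00000110852, chr12:9852984-9870136, minus strand), the NKp80 ligand, stood lowest but one of the 5 in HL60 and had the largest difference of them. Its level was 0.631 and 0.767 FPKM in HL60 and 20.6 and 22.1 FPKM in HL60/ADR. The means were 0.699 ± 0.096 and 21.4 ± 1.05 FPKM (SD, n = 2 each), a ratio of 30.6. The log2 difference was 3.72 ± 0.0748, and 21 of the tested genes had a larger one. Within its line, CLEC2B moved from the 9.26th to the 88.3rd percentile of the levels of tested genes. The receptor of its protein, KLRF1, was listed at 0 and 0.0382 FPKM in HL60 and at 0.254 and 0.424 FPKM in HL60/ADR, under the filter on low values (a mean of 0.5 FPKM over the 4 libraries).

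CLEC12A (ENSG00000172322, chr12:9951316-9995694, plus strand) had 6.17 and 5.97 FPKM in HL60 and 30.3 and 29.7 FPKM in HL60/ADR. The HL60/ADR libraries were 4.94 times the HL60 libraries in the mean, 6.07 ± 0.143 against 29.99 ± 0.408 FPKM (SD, n = 2 each). Its log2 difference was 2.13, with 169 tested genes above it. CLEC12A, like CLEC2B, thus went from a middle or low rank to the upper levels of the line, the 92.2nd percentile in HL60/ADR after the 55.1st in HL60.

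CLEC12B (ENSG00000256660, chr12:10010627-10018796, plus strand), the second ITIM receptor, was the lowest of the 5 in both lines. It had 0.449 and 0.458 FPKM in HL60 and 2.11 and 2.47 FPKM in HL60/ADR, a ratio of means of 5.06. Its log2 difference was 1.18, which 878 tested genes exceeded. The ratio was close to that of CLEC12A, while the log2 difference was smaller because the added 1 FPKM weighs more on a low gene. CLEC12A and CLEC12B also overlap CLEC1B, which runs on the opposite strand and had 0 and 0.0396 FPKM in HL60 and 0.798 and 0.713 FPKM in HL60/ADR. Whether strand was used in quantification is not given in the sources used here, so reads in the shared stretches could not be assigned with certainty.

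CD69 (ENSG00000110848, chr12:9752486-9760901, minus strand) was the most abundant of the 5 in HL60. It had 40.7 and 41.9 FPKM in HL60 and 62.4 and 60.9 FPKM in HL60/ADR, a ratio of 1.49 and a log2 difference of 0.57. CLEC2D (ENSG00000069493, chr12:9664969-9699553, plus strand), the CD161 ligand, had 2.39 and 2.21 FPKM in HL60 and 3.83 and 3.89 FPKM in HL60/ADR, a ratio of 1.68 and a log2 difference of 0.56. The libraries of the lines did not overlap for either gene, yet 2380 and 2411 tested genes had larger differences than CD69 and CLEC2D. As a description, 3 of the 5 (CLEC2B, CLEC12A and CLEC12B) had a log2 difference beyond 1. The call used for all other genes also asks for an adjusted p under 0.05 from limma, and 8.93% of all tested genes were called higher by it.

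**Figure D1:**
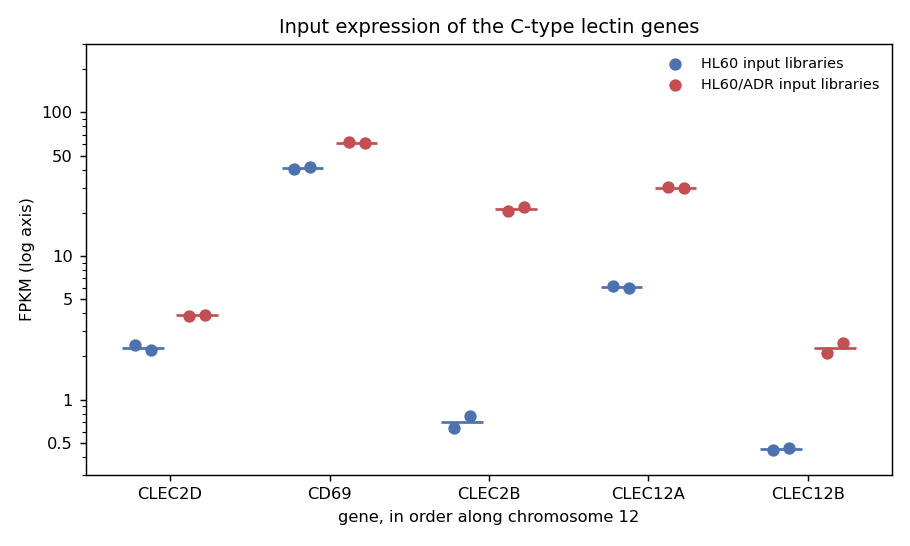
FPKM on a log axis of the 5 lectin genes in the 4 input libraries, with 1 point per library and a bar at the mean of each line. For each gene both HL60/ADR points lie above both HL60 points, with the widest gap for CLEC2B (means 0.699 and 21.4 FPKM) and the narrowest for CD69 (41.3 and 61.7 FPKM).

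The make-up of the group differed between the lines. The 5 levels summed to 50.3 and 51.3 FPKM in HL60 and to 119.3 and 119.1 FPKM in HL60/ADR. CD69 held 80.8% and 81.7% of that sum in HL60 and 52.3% and 51.1% in HL60/ADR. CLEC2B took 1.25% and 1.49% in HL60 and 17.3% and 18.6% in HL60/ADR, and CLEC12A went from 12.3% and 11.6% to 25.4% and 24.9%. The order of levels in HL60 was CD69, CLEC12A, CLEC2D, CLEC2B and CLEC12B, and in HL60/ADR CLEC2B stood above CLEC2D. No neighbours in either order overlapped in their libraries. The closest were CLEC12A and CLEC2B in HL60/ADR, whose means differed 1.40-fold.

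The genes whose 4 library values were nearest to each member's, by Euclidean distance over log2(FPKM + 1), all lay on other chromosomes. They were ANKRD36B (distance 0.0214) and KLHDC2 (0.0703) for CLEC2D, EIF4A2 (0.0665) and TKT (0.105) for CD69, and ANKZF1 (0.154) and HINT3 (0.188) for CLEC12A. For CLEC12B, GGT7 (0.125) was among them. CLEC2B had the most distant nearest genes, AFAP1-AS1 (0.484), an antisense transcript of chromosome 4, and TRBV7-4 (0.661), a T cell receptor beta segment of chromosome 7. AFAP1-AS1 averaged 0.919 FPKM in HL60 and 17.3 FPKM in HL60/ADR.

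m6A peaks were listed for each of the 5 genes in both lines, and they numbered 8 in HL60 and 11 in HL60/ADR. Each list was made from the pooled replicates of a line, so no spread between replicates exists for a peak, and the fold enrichment (IP over input, as the authors' peak caller gave it) is a single value. All 8 HL60 peaks lay in 3' UTRs, as did 8 of the 11 HL60/ADR peaks. That region held 45.94% of the peaks of all genes in HL60 and 45.15% in HL60/ADR. All peaks had a median enrichment of 3.86-fold (HL60) and 5.32-fold (HL60/ADR). The paper listed peaks at a peak caller p under 0.05, and its definition of an m6A peak also asks for a fold enrichment of 2. At an enrichment of 2 or more, the 5 genes kept 5 peaks in HL60 and 8 in HL60/ADR, and CLEC2B kept 0 in HL60.

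The CD69 peak was the strongest of the 5 genes by its significance. It lay in the 3' UTR at chr12:9752993-9754197 in HL60 with a fold enrichment of 4.18, and at chr12:9752993-9754227 in HL60/ADR with 7.15. The log10 of the peak p-value was -454 and -1870, and the deposited log10 FDR was minus infinity for both. The ratio of the enrichments was 1.71, which is the 72.3rd percentile of the 16139 pairs of overlapping peaks of the same gene. The median pair had a ratio of 1.27.

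CLEC2B had 1 peak in each line at the end of its 3' UTR, at chr12:9853254-9854465 in HL60 and chr12:9853224-9854435 in HL60/ADR. Its fold enrichment was 1.94 and 2.37, a ratio of 1.22, at the 46.8th percentile of pairs. The log10 of the false discovery rate (FDR) was -2.43 in HL60 and -132 in HL60/ADR, while the RNA level beneath was 30.6 times higher in HL60/ADR. In CLEC2B, then, the level differed widely, and the ratio of the enrichments was near that of the median pair (1.27). The HL60 peak lay under a fold enrichment of 2, and the error of the ratio is unknown.

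CLEC12A had 2 peaks in HL60, both in the 3' UTR, and 5 in HL60/ADR. The pair at the stretch chr12:9984898-9985078 was enriched 2.77-fold in HL60 and 1.43-fold in HL60/ADR, a ratio of 0.516 at the 5.29th percentile. The second HL60 peak (chr12:9982034-9983554) had 1.46, and an HL60/ADR peak further along the 3' UTR (chr12:9983912-9984211) had 2.67 with a log10 FDR of -29.3. HL60/ADR peaks of higher fold enrichment than these, overlapping the span of CLEC12A, were annotated to CLEC1B on the opposite strand. Their fold enrichment was 5.79 (chr12:9985346-9995485, log10 FDR -64.6), 3.33 (chr12:9986149-9991268, log10 FDR -1.78) and 6.68 (chr12:9993028-9996897, log10 FDR -17.5). HL60 had CLEC1B peaks of 2.29 (log10 FDR -1.53) and 6.62 (log10 FDR -0.367). The paper describes an enzyme treatment of the U-labeled second strand in library preparation, but not whether peak calling used strand. Peak signal of CLEC12A and CLEC1B could therefore not be assigned with certainty there. The remaining HL60/ADR peaks annotated to CLEC12A lay near the 5' end. The peak at chr12:9951278-9951608 had a fold enrichment of 7.09 with a log10 FDR of -0.566. The peak at chr12:9951907-9952707 had 19.5 but was annotated to exon 1 of 3 of CLEC12A-AS1, the antisense gene listed at 0 in both HL60/ADR input libraries. These enrichments equalled 8 and 22 steps of 0.8865 once rounded to the 3 digits of the list. The step was the one that most values fell on, and 26.34% of HL60/ADR peaks equalled 6 to 40 whole steps of it by the same rounding. Whether the spacing marks windows with few input reads was not tested.

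The last of the 5' peaks of CLEC12A, chr12:9971428-9971547, had a fold enrichment of 1.36 and a log10 FDR of -4.25, and it begins just after the RefSeq start site at position 9971409. Its first bases are shown because they lie in the 5' UTR of the transcript and under a peak listed for HL60/ADR alone. The capitals mark AAACA, the only match in this stretch to the 18 words of 5 letters of the m6A consensus, which have A, G or T first, A or G next, then A and C, and end in A, C or T. The sense strand alone was searched.
CLEC12A, chr12:9971429-9971458: ggtgattggtacagtaggtttatAAACAga
Of all promoters in the table, 32.55% held such a word in the corresponding 30 bases, so a match is common and marks no methylated base.

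CLEC12B had 2 peaks in each line, all in the 3' UTR and paired. The first was enriched 3.31-fold in HL60 (chr12:10015767-10015886) and 4.80-fold in HL60/ADR (chr12:10015383-10016005). The second, at the end of the gene, had 19.9 in HL60 (chr12:10018498-10018796) and 6.32 in HL60/ADR (chr12:10017941-10018796), a ratio of 0.318 at the 1.44th percentile of pairs. The HL60 value lay on 18 whole steps of 1.104 with a log10 FDR of -4.01, and the gene had 0.453 FPKM in that line. The HL60/ADR peak had a log10 FDR of -52.6. An HL60/ADR peak over the same 3' end was annotated to AC024224 on the opposite strand (chr12:10015616-10030606, fold enrichment 4.84).

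CLEC2D also had 2 peaks in each line, none of which overlapped between the lines. The weaker peak of each line had little FDR support, which limits what the lack of overlap shows. In HL60 the peaks were at chr12:9692927-9692987 (fold enrichment 1.63, log10 FDR -0.777) and chr12:9697665-9697874 (2.28, log10 FDR -1.63). In HL60/ADR they were at chr12:9697395-9697545 (1.52, log10 FDR -0.855) and chr12:9698414-9698924 (6.50, log10 FDR -6.03). Stronger peaks inside the span of CLEC2D were annotated to AC007068 (ENSG00000213443), a gene on the same strand, and the peak at chr12:9695384-9696227 had 4.88 in HL60 and 8.31 in HL60/ADR. Peak signal of the 2 genes cannot be told apart there.

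Among the 5 pairs, 3 had a higher fold enrichment in HL60/ADR, where 68.4% of all pairs did. None was more than 2-fold higher (18.9% of all pairs) and 1, the last peak of CLEC12B, was more than 2-fold lower (4.71% of all pairs).

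**Figure D2:**
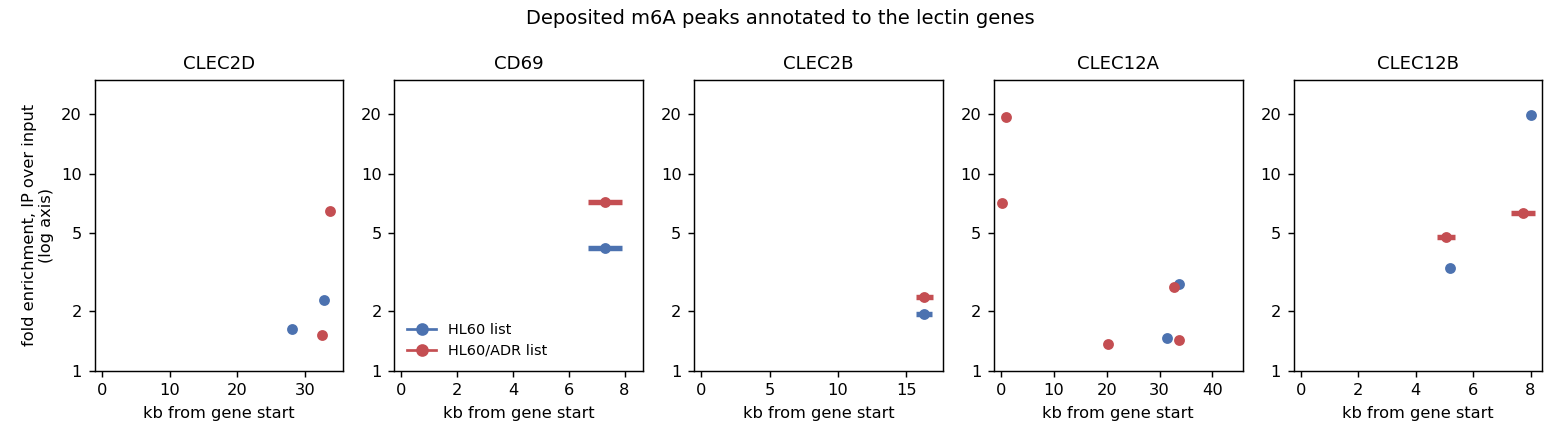
Deposited m6A peaks of the 5 lectin genes, with the distance from the gene start in kb along the transcript's direction and the fold enrichment on a log axis. Bars span each peak, and most peaks of both lines sit at the 3' end, with the 5' peaks of CLEC12A listed for HL60/ADR alone.

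The neighbours of the 5 genes were next read along 12p13. The segment from KLRB1 to MAGOHB (chr12:9594551-10613609) held 36 genes of the table, of which 17 passed the filter, the 5 members and 12 others. Of the 12 others, 5 rose and 0 fell (limma, Benjamini-Hochberg adjusted p over all genes). The risers were 41.7%, against 8.93% of all tested genes and 11.5% of the 741 tested genes of chromosome 12. Of all tested genes, 13.8% fell. Both counts depend on the filter. CLEC7A passed it only through HL60/ADR. KLRC4 and AC068775, at 0 in both HL60/ADR libraries, lay just under it (means 0.472 and 0.424 FPKM over the 4 libraries). Without HL60 replicate 2, 1 fell, KLRC2 with a log2 difference of -1.03.

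The risers flanked and followed the members. Right before CLEC2D lay 2 genes named AC010186, ENSG00000256594 with 2.84 and 2.22 FPKM in HL60 and 15.5 and 16.1 FPKM in HL60/ADR (log2 difference 2.25, limma adjusted p = 6.6e-05), and ENSG00000257027 with a log2 difference of 1.83 (limma adjusted p = 6.4e-05). CLEC7A (Dectin-1), the receptor of fungal beta-glucan, had 0.276 and 0.355 FPKM in HL60 and 4.95 and 5.73 FPKM in HL60/ADR (log2 difference 2.27, limma adjusted p = 4.9e-05). TMEM52B (log2 difference 1.16) and GABARAPL1, an autophagy protein of the ATG8 family (1.22), rose as well. GABARAPL1 had 8.35 and 8.79 FPKM in HL60 and 21.9 and 20.7 FPKM in HL60/ADR.

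The other tested neighbours were not called. OLR1 (LOX-1), the receptor of oxidised LDL, had 0.193 and 0.247 FPKM in HL60 and 1.06 and 1.69 FPKM in HL60/ADR, a log2 difference of 0.95, and overlaps TMEM52B on the opposite strand. CLEC9A, a dendritic cell receptor for dead cells, had a log2 difference of 0.40 (limma adjusted p = 0.0736). Past GABARAPL1 the natural killer receptor genes KLRK1 (NKG2D) and KLRC2 (NKG2C) had differences of -0.77 and -0.80. KLRC2 is uncertain, since reads can be split among its near-identical KLRC paralogs. KLRA1P, MAGOHB and EIF2S3B had -0.43, -0.44 and 0.43.

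In a division made after the values were seen, the 7 tested non-members up to GABARAPL1 were all above 0, and 1 of the 5 beyond it was. Over all tested genes, 40.8% were above 0. CLEC7A (mean 0.316 FPKM in HL60) and OLR1 (0.22 FPKM) passed the filter only through HL60/ADR. KLRK1 (mean 0.11 FPKM in HL60/ADR) and KLRC2 (0.199 FPKM) passed it only through HL60. The filter thus fixed the sign of these genes, and nothing is read from the division. At the natural killer end of the complex, KLRC4 was listed at 0 in both HL60/ADR libraries after 0.839 and 1.05 FPKM in HL60.

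**Figure D3:**
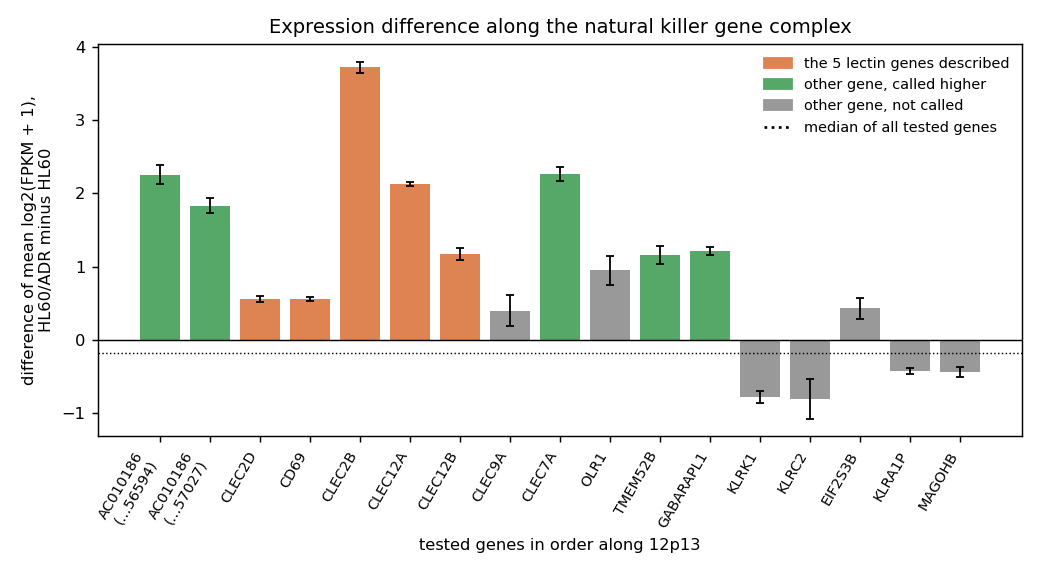
Difference of mean log2(FPKM + 1), HL60/ADR minus HL60, for the 17 tested genes of the segment in chromosome order, with each gene's own standard error over the 4 libraries as error bars. The 5 lectin genes and their neighbours up to GABARAPL1 lie above 0, and of the genes after it only EIF2S3B does.

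Lectin receptor genes beyond the 5 members were mixed. Of 24 other lectin receptor genes of the complex, 20 were in the table and 9 passed the filter, of which 3 rose and 0 fell, with a median log2 difference of 0.40. Over all tested genes, 8.93% rose and 13.8% fell. CLEC7A and CLEC4E (mean 0.421 FPKM in HL60) passed the filter only through HL60/ADR, and KLRC4 lay just under it. These counts therefore depend on the filter. CLEC7A, OLR1, CLEC9A, KLRK1, KLRC2 and KLRA1P were also among the neighbours counted above, so the 2 counts are not separate. Besides CLEC7A, the genes that rose were CLEC4E (Mincle), a receptor of mycobacterial glycolipid, with 0.330 and 0.512 FPKM in HL60 and 8.36 and 8.17 FPKM in HL60/ADR (log2 difference 2.71), and its partner CLEC4D (1.962). CLEC4A, an inhibitory ITIM receptor, was not called, with a log2 difference of 0.35.

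Of 41 lectin genes elsewhere in the genome, 27 were in the table and 10 were tested. Of these 3 rose and 1 fell, against 8.93% and 13.8% of all tested genes, with a median log2 difference of -0.00078. CLEC5A, a myeloid activating receptor, had 3.73 and 4.37 FPKM in HL60 and 60.3 and 62.6 FPKM in HL60/ADR (log2 difference 3.63). CD93 was listed at 0 in both HL60 libraries and at 25.9 and 25.6 FPKM in HL60/ADR. CLEC11A, a secreted growth factor, rose by 1.42 on the log2 scale. The increases included lectin genes of other chromosomes as well as those of 12p13.

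Adaptors and enzymes that work with lectin receptors were read from a list of 23 genes, of which 19 were tested. Of these 6 rose and 3 fell, against 8.93% and 13.8% of all tested genes. TYROBP (DAP12), the adaptor of CLEC5A, had 11.7 and 11.6 FPKM in HL60 and 95.1 and 92.5 FPKM in HL60/ADR (log2 difference 2.90). FCER1G, the adaptor of CLEC4E, had a log2 difference of 1.97, and the lipid phosphatase INPP5D (SHIP1) one of 1.67.

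PTPN6 and PTPN11, the phosphatases named for the ITIM receptors above, did not pass the call. PTPN6 (SHP-1) had 59.9 and 61.0 FPKM in HL60 and 63.6 and 66.1 FPKM in HL60/ADR, a log2 difference of 0.10 ± 0.0276 (standard error from limma). PTPN11 (SHP-2) had 29.4 and 30.1 FPKM in HL60 and 29.7 and 29.6 FPKM in HL60/ADR, a log2 difference of -0.0025 ± 0.0242 whose sign was positive after rescaling (0.21).

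**Figure D4:**
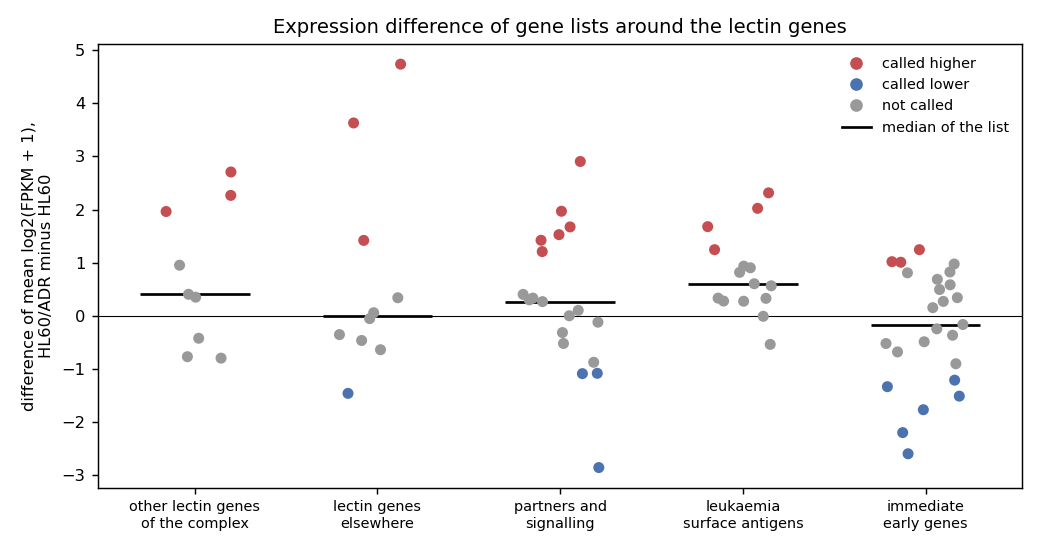
Difference of mean log2(FPKM + 1), HL60/ADR minus HL60, of each tested gene of 5 gene lists, with 1 point per gene placed at random sideways, a bar at the list median and colour for the call. The lists of other lectin genes and leukemia surface antigens hold 0 genes called lower, and the immediate early genes hold 6 called lower and 3 higher. Over all tested genes, 13.8% were called lower and 8.93% higher.

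The cell type labels were read against marker lists, beside the 8.93% of all tested genes that rose and the 13.8% that fell. Of the 10 promyelocyte granule genes, 9 were tested and 6 rose, and their summed level was 312.7 to 314.6 FPKM in HL60 and 1429 to 1470 FPKM in HL60/ADR, with MPO at 136.7 and 135.4 and then 244.0 and 252.0 FPKM. CTSG (cathepsin G) made up most of the higher sum, with 5.58 and 7.87 FPKM in HL60 and 795.3 and 819.0 FPKM in HL60/ADR. MPO, MS4A3 and CEBPE were not called, with log2 differences of 0.86, -0.81 and -0.27. Of 30 T and natural killer cell markers, 25 were in the table and 7 were tested, 2 rose (TRAC and CD3D) and 1 fell (IL2RB), with sums of 127.7 to 133.2 and 408.4 to 413.0 FPKM. Most of these sums came from CD4 (61.96 and 64.61 FPKM, then 121.4 and 121.9) and TRAC (30.68 and 30.61 FPKM, then 185.2 and 191.9). CD3D had 0.469 and 0.617 FPKM in HL60 and 54.7 and 55.6 FPKM in HL60/ADR. IL2RB had 1.187 and 1.199 FPKM and then 0.0357 and 0.0872 FPKM. Among the natural killer markers, NCAM1, NCR1, GNLY and TBX21 were under 0.2 FPKM in all libraries, while NKG7 had 30.5 and 32.7 FPKM in HL60 and 42.4 and 39.4 FPKM in HL60/ADR. NCR3 had 1.134 and 1.439 FPKM in HL60 and 0.609 and 0.5781 FPKM in HL60/ADR. PRF1 had 0.5821 and 0.5553 FPKM in HL60 and 0.4799 and 0 FPKM in HL60/ADR. KIR2DL4 had 0.1035 and 0.3116 FPKM in HL60 and 0.4999 and 0.6224 FPKM in HL60/ADR. FCGR3A was listed at 0 in both HL60 libraries and at 0.762 and 0.743 FPKM in HL60/ADR. Monocyte and macrophage markers summed to 57.4 to 60.02 and 103.6 to 104.2 FPKM, with 1 of 4 tested higher, 1 lower and CD14 between 0.255 and 0.319 FPKM, and B cell markers to 19.6 to 20.4 and 6.85 to 8.10 FPKM, with 1 of 4 tested lower. LYZ made up most of the monocyte and macrophage sums, with 39.71 and 38.23 FPKM in HL60 and 75.49 and 76.42 FPKM in HL60/ADR. It was not called. CD68 rose, with 11.56 and 10.23 FPKM and then 25.47 and 25.42 FPKM. CSF1R fell, with 6.12 and 6.54 FPKM and then 1.49 and 1.26 FPKM. FCN1 had a log2 difference of -0.79 and was not called. The share of these markers in the lectin differences was not tested. Replicates of a line correlated at 0.9907 or more across tested genes.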

How the data were processed

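Poly(A) RNA of HL60 and HL60/ADR gave 2 input and 2 IP libraries per line. Reads were trimmed (fastp) and aligned to GRCh38 (HISAT2) by the authors, who deposited FPKM per gene from StringTie. Peaks came from exomePeak on pooled replicates, annotated with ChIPseeker. Each deposited peak has a ratio (fold enrichment of IP over input), a p-value of the caller and, as scores, the log10 of the p-value and FDR. Read counts were not used here, so the depth behind an FPKM is unknown.

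The 13053 genes averaging at least 0.5 FPKM were compared after a log2(FPKM + 1) transformation, which understates differences of low genes, using limma 3.58.1 under R 4.3.3 (trend, two-sided, with no covariate besides the line). Calls required a p, adjusted by Benjamini-Hochberg over all genes, under 0.05 and a log2 difference beyond 1. The fit was tested on simulated data. The authors call the replicates biological duplicates without stating separate cultures, so p-values reflect the spread of these libraries alone, which may be technical. Peaks of 1 gene sharing at least 1 base formed 1-to-1 pairs. Members and gene lists were chosen with earlier results of these data known. Named genes were the 5 members, tested genes of the segment and of the complex, up to 4 called genes per further list by size of difference, PTPN6, PTPN11, KLRF1 and the 2 nearest genes of each member. Markers and a few listed genes at 0 were named beside them, and some genes that meet the rule are not reported here. Alternatives were a pseudocount of 0.1, no filter, libraries rescaled to the same median, a replicate block, each library left out, and stricter peaks or overlap.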

Additional observations from a re-analysis of the deposited data

How the results depend on the processing

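The 5 lectin genes had a higher level in HL60/ADR under every alternative run. With a pseudocount of 0.1 the log2 differences were 0.72 for CLEC2D, 4.75 for CLEC2B, 2.29 for CLEC12A and 2.11 for CLEC12B. With libraries rescaled to the same median they were 0.77 for CLEC2D, 0.78 for CD69, 3.93 for CLEC2B, 2.35 for CLEC12A and 1.39 for CLEC12B. Calls over all genes were 1165 higher and 1798 lower, 1778 and 2712 with a pseudocount of 0.1, and 1659 and 1169 after rescaling. With a pseudocount of 0.1, called lower were 2 other lectin genes of the complex (KLRK1 at -2.30 and KLRC2 at -2.08), the same count of 2 neighbours, 3 B cell and 2 monocyte markers, and 6 immediate early genes were called higher. After rescaling, 1 signalling gene and 0 T and NK markers were called lower, and 6 immediate early genes, 7 surface antigens and 2 monocyte markers higher. Leaving out each library gave 0 to 1 called lower among the other lectin genes and among the neighbours, and 1 to 3 immediate early genes called higher. OLR1 was called at 2.18 with a pseudocount of 0.1, at 1.16 after rescaling and at 1.14 without HL60/ADR replicate 1. PTPN11 turned positive after rescaling (0.21), and ranged from -0.019 to 0.014 as each library was left out, positive only without HL60 replicate 2. Peaks enriched at least 2-fold numbered 5 in HL60 for the 5 genes and left 3 pairs, and 20.58% of all pairs were then over 2-fold higher. An FDR of at most 1e-05 with an enrichment of 4 or more left 1 HL60 peak, 4 HL60/ADR peaks and 1 pair, and an overlap of 50% of both peaks left 3 pairs. Replicate numbers were not taken to pair the libraries, since the correlation of replicate differences between the lines was 0.0433 over 13053 genes with only 2 pairs. With the replicate number as a block, 1165 genes were called higher and 1800 lower. Without replicated peaks and without read depth, the error of a fold enrichment is unknown, and genes near 0.5 FPKM rest on few reads.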

Other observations

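CLEC12A belongs to the surface antigens by which myeloid leukemia cells are recognised, and the other antigens of that list were also read. Of 25 listed, 23 were in the table and 15 were tested, of which 4 rose and 0 fell, with a median log2 difference of 0.60, against 8.93% called higher and a median of -0.18 over all tested genes. ITGAM (CD11b), the alpha chain of the complement receptor integrin, had 8.48 and 8.66 FPKM in HL60 and 46.0 and 47.2 FPKM in HL60/ADR (log2 difference 2.31). IL3RA (CD123), the alpha chain of the interleukin-3 receptor, had 0.431 and 0.485 FPKM in HL60 and 4.402 and 5.49 FPKM in HL60/ADR (2.02). The ectoenzyme CD38 (1.68) and the adhesion receptor CD96 (1.24) also rose. IL3RA, CD96 and the uncalled CD44 passed the filter only through HL60/ADR. Listed antigens under the filter were not counted. FLT3 (0.689 and 0.654 FPKM in HL60) and KIT (0.259 and 0.204 FPKM) were at 0 in both HL60/ADR libraries. FOLR2 was at 0 in both HL60 libraries and at 0.26 and 0.222 FPKM in HL60/ADR. CD33, a sialic acid-binding lectin, had 11.7 ± 0.490 and 17.8 ± 0.0762 FPKM (SD, n = 2 each), a log2 difference of 0.56 that did not pass the call.

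CD69 is induced early when lymphocytes are activated, so genes of the same early wave were read from a list of 27, all in the table and 25 of them tested. Of these 3 rose and 6 fell, against 8.93% and 13.8% of all tested genes. The median log2 difference was -0.17, close to that of all tested genes. MYC had 109.0 and 110.5 FPKM in HL60 and 17.1 and 17.4 FPKM in HL60/ADR (log2 difference -2.60). IER3 (-2.20), EGR2 (-1.77) and EGR3 (-1.52) had lower levels too. The called AP-1 subunits, named after their values were seen, differed in direction. FOS had 7.69 and 7.44 FPKM in HL60 and 20.1 and 18.5 FPKM in HL60/ADR (1.24), and FOSL2 rose by 1.01 on the log2 scale. FOSL1 had 6.70 and 7.23 FPKM in HL60 and 2.46 and 1.86 FPKM in HL60/ADR (-1.34). Without HL60/ADR replicate 2, 1 of the 25 was called higher in place of 3.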
